A study of Mus musculus with 5 samples.

Results

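The Cyp2c genes encode cytochrome P450 enzymes of the hepatocyte, and 10 members of the family were analysed (Cyp2c29, Cyp2c37, Cyp2c38, Cyp2c39, Cyp2c50, Cyp2c54, Cyp2c67, Cyp2c68, Cyp2c69 and Cyp2c70) in single-nucleus RNA-seq of mouse liver. The members were taken by symbol from a table of 32285 genes, which holds 15 Cyp2c symbols in all. Their unique molecular identifiers (UMIs, each standing for 1 captured RNA molecule) were summed per library over hepatocyte nuclei, defined as nuclei with at least 2000 UMIs and at least 1 UMI of Hnf4a, a hepatocyte transcription factor. These were 23267 of 57080 barcodes. Chow replicate 1 gave 4222 of them, chow 2 gave 6744, chow 3 gave 7006, MASH 1 gave 2684 and MASH 2 gave 2611.

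All libraries came from livers of male wild-type C57BL6/J mice that began their diets at 10 to 12 weeks of age and stayed on them for 5 months. The 3 chow libraries came from mice on regular chow and the 2 MASH libraries from mice on a diet rich in fructose (20 kcal%), cholesterol (2%) and fat (40 kcal%), used to bring on metabolic dysfunction-associated steatohepatitis (MASH). Nuclei of snap-frozen liver were sorted and their RNA was captured at the 3′ end, so the values describe RNA and not protein. RNA captured with a nucleus can include free RNA of the suspension, and intronic reads were left out. Whether a library is 1 mouse or a pool is not stated, so p-values measure the spread between these libraries, which may be technical. The comparison asks how the family members differ between the diets and along the lobule, from the portal vein to the central vein.

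Because the nuclei were chosen by total UMIs and Hnf4a, neither is a result here. Between 34.0% and 62.5% of the hepatocyte nuclei of a library held exactly 1 Hnf4a UMI, the least that the definition allows. Within 200 UMIs above the minimum lay 60, 332 and 175 chow nuclei and 67 and 65 MASH nuclei, and within 200 UMIs below it lay 49, 302, 133, 65 and 52 nuclei with Hnf4a. The libraries held 35612373 to 49137377 UMIs in total, and the hepatocyte sums held 15125194 to 39316007. Median mitochondrial shares over all barcodes stood apart in chow 2 (3.55%) and MASH 1 (7.42%), against 0.892% to 1.24% in the others. Any pair of libraries shared 23 to 48 barcodes.

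CYP2C enzymes sit in the endoplasmic reticulum and take electrons from cytochrome P450 reductase to oxidise drugs, steroids and fatty acids. In the mouse they are best known for turning arachidonic acid into epoxides and hydroxy acids, while Cyp2c70 has a role of its own in making muricholic acids, the hydrophilic bile acids of rodents. Many hepatic P450 genes are more active around the central vein, and the nuclear receptors HNF4A, CAR and PXR are among their known regulators.

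All 10 members were found by Ensembl ID in the GENCODE M21 annotation (GRCm38), as protein-coding genes of 1 cluster of 918 kb on chromosome 19, from 39269405 to 40187333. From the proximal end their order is Cyp2c29, Cyp2c38, Cyp2c39, Cyp2c67, Cyp2c68, Cyp2c69, Cyp2c37, Cyp2c54, Cyp2c50 and Cyp2c70, with 4 members on the plus and 6 on the minus strand. Cyp2c40, a family gene that is not a member, lies inside the cluster. Cyp2c29 overlaps the pseudogene Cyp2c53-ps on the same strand. Cyp2c29 lies at 39269405 to 39330713 on the plus strand, Cyp2c38 at 39389556 to 39463075 on the minus strand and Cyp2c70 at 40153353 to 40187333 on the minus strand.

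The coding sequences fall into groups of close relatives. Cyp2c67 and Cyp2c69 were 97.7% identical, and Cyp2c68 was 97.1% identical to Cyp2c67. Cyp2c37 and Cyp2c50 were 96.1% identical, Cyp2c54 was 95.2% identical to Cyp2c50, and Cyp2c38 and Cyp2c39 were 94.2% identical. Cyp2c70 stood apart, at no more than 70.3% identity to any other member. Reads are counted at the 3′ end, and of the windows of 90 bases in the last 500 bases of each transcript 23.1% of those of Cyp2c67, 28.0% of Cyp2c68 and 23.8% of Cyp2c69 occurred letter for letter in another gene of the family. For Cyp2c37, Cyp2c50 and Cyp2c54 the shares were 5.35%, 3.65% and 8.27%, and for Cyp2c29, Cyp2c38, Cyp2c39 and Cyp2c70 no window was shared. Values of Cyp2c67, Cyp2c68 and Cyp2c69 are therefore less certain than those of Cyp2c29, Cyp2c38 and Cyp2c70.

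The 130 bases before the start site are shown for 6 members, chosen to show members that differ in their diet or zone values described further on. They are from RefSeq (GRCm38.p6), which had such windows for 9 of the 10 members, and run 5′ to 3′ on the strand of the gene. The RefSeq start of Cyp2c29 lies 17680 bases inside the GENCODE gene, while the starts of the other 5 lie within 47 bases of theirs. Capitals mark CAAAGTC, the core of a site bound by HNF4A, or, in Cyp2c38 and Cyp2c50, which lack it, a word that is 1 base away.
Cyp2c29: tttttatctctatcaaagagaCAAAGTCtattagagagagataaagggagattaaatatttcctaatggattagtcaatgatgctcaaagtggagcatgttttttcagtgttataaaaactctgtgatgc
Cyp2c37: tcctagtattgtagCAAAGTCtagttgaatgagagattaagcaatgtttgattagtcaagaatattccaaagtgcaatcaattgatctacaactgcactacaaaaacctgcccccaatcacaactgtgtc
Cyp2c50: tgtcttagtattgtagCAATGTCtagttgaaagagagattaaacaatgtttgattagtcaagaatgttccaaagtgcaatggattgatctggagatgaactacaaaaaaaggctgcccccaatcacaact
Cyp2c67: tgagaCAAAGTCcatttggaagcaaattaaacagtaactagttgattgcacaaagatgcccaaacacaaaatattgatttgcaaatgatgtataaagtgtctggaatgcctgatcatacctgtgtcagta
Cyp2c38: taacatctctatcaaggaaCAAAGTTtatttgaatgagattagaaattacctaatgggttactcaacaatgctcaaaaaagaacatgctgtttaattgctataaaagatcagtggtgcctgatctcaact
Cyp2c70: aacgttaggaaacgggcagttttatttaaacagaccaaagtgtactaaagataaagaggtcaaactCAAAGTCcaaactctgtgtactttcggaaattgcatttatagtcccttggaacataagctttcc

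These windows are chr19:39286955-39287084 (plus strand) for Cyp2c29, chr19:39992294-39992423 (plus) for Cyp2c37, chr19:40089549-40089678 (plus) for Cyp2c50, chr19:39649043-39649172 (minus) for Cyp2c67, chr19:39463076-39463205 (minus) for Cyp2c38 and chr19:40187287-40187416 (minus) for Cyp2c70. On either strand, CAAAGTC occurred in the 250 bases before the start in 7 of the 9 members and in 3.84% of 32851 such windows of all genes. Counted from 1 at the 5′ end of the word, the word in capitals differs by C7T in Cyp2c38 and by A4T in Cyp2c50. Cyp2c50 holds another word 1 base away, CAAAGTG (C7G), printed in lower case. TATAAA, a common core promoter element, occurred in 4 members and in 12.4% of all windows, and GTTAAT, part of a site for HNF1 factors, in 2 members and in 6.43%. These are matches of letters and say nothing of binding in these livers.

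In chow, the members with most UMIs were Cyp2c70 and Cyp2c29. Levels are CPM, a gene's UMIs per 1000000 UMIs of the library, scaled with edgeR's TMM factors (TMM CPM). Here 1 captured molecule gives 1 UMI at any transcript length, so no scaling by length is needed. Capture and unique mapping can still differ between genes, as with the shared 3′ windows of Cyp2c67, Cyp2c68 and Cyp2c69, so the order of genes is approximate. Cyp2c70, the muricholic acid enzyme, had 206, 957 and 856 TMM CPM in chow replicates 1, 2 and 3, and Cyp2c29, an arachidonic acid epoxygenase, had 187, 355 and 302. Then came Cyp2c50 with 129 ± 33.4, Cyp2c68 with 97.5 ± 76.4, Cyp2c37 with 95.7 ± 45.7, Cyp2c67 with 93.0 ± 53.6, Cyp2c54 with 56.0 ± 17.1 and Cyp2c38 with 35.6 ± 24.1 TMM CPM (SD, n = 3). Cyp2c69 at 1.10 ± 1.28 and Cyp2c39, a retinoic acid hydroxylase, at 0.407 ± 0.251 were barely present. Between neighbours in this order the chow libraries overlapped, except between Cyp2c29 and Cyp2c50 and between Cyp2c38 and Cyp2c69.

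In MASH the order was another one. Cyp2c38, an epoxygenase below most other members in chow, came first with 77.8 ± 22.3 TMM CPM (SD, n = 2), overlapping with Cyp2c70 at 64.3 ± 6.34. Cyp2c50 followed with 23.3 ± 8.09, Cyp2c29 with 19.1 ± 4.82, Cyp2c67 with 17.8 ± 5.94 and Cyp2c68 with 13.8 ± 0.366, each overlapping with the next. Cyp2c37 had 9.88 ± 0.646, Cyp2c54 had 2.61 ± 1.04, Cyp2c39 had 0.593 ± 0.249 and Cyp2c69 had 0.0240 ± 0.0340 TMM CPM, with no overlap between neighbours here.

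**Figure D1:**
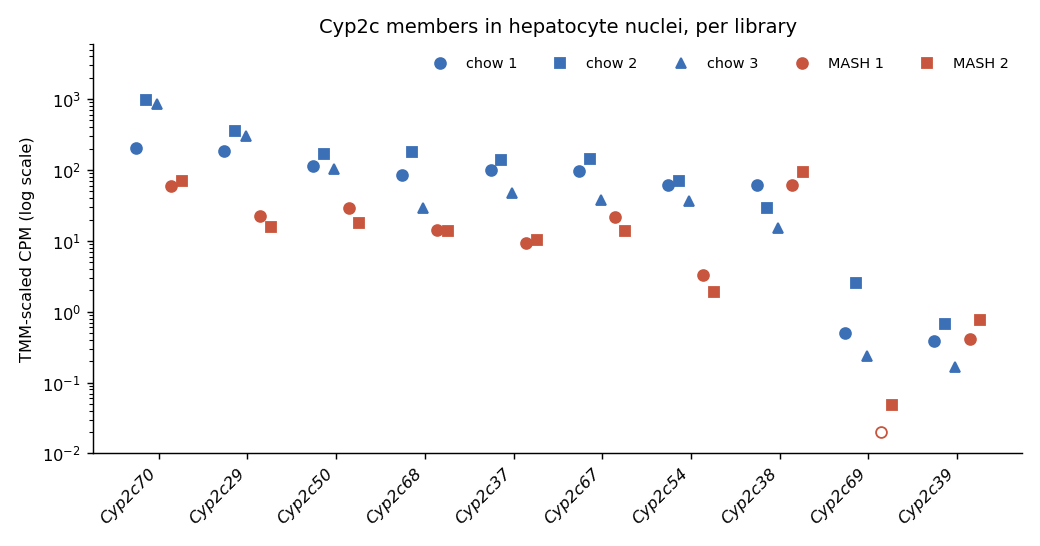
Levels of the 10 members in hepatocyte nuclei, as TMM-scaled CPM on a log axis, with 1 point per library (blue, chow; red, MASH; shape, replicate). The MASH points lie below all chow points for 8 members, and overlap with them for Cyp2c38 and Cyp2c39; the open point is a count of 0, drawn near the foot of the axis.

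Compared with chow, 7 of the 10 members fell in MASH hepatocyte nuclei, 0 rose and 3 did not pass the test (edgeR's quasi-likelihood test, two-sided, Benjamini-Hochberg adjusted p under 0.05 over all genes tested). Of the 15414 genes tested, 13.7% passed, 4.48% as lower and 9.26% as higher in MASH. At an unadjusted p under 0.05 edgeR gave 8 members lower and 0 higher, where 14.4% of all genes were lower. DESeq2 gave the same counts after adjustment, where 10.8% of all genes were lower. Both sets of 8 include Cyp2c69, which passed the filter on low counts only through chow. The median log2 difference was -3.05 over the 10 members and 0.00101 over all genes tested. In 8 members, Cyp2c69 among them, every MASH library lay below every chow library, as in 24.2% of all genes tested. In 30.1% every MASH library lay above, so that the diets did not overlap in 54.3%.

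The steepest fall was that of Cyp2c54, an epoxygenase: 61.6, 69.7 and 36.8 TMM CPM in the chow libraries and 3.34 and 1.87 in the MASH libraries, a log2 difference of -4.43 (SE 0.44, edgeR adjusted p = 0.00303). Cyp2c29 went from 187, 355 and 302 to 22.5 and 15.7 TMM CPM (log2 -3.88, SE 0.41, edgeR adjusted p = 0.00346). In both, the MASH libraries lay far below the lowest chow library.

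Cyp2c37, which hydroxylates arachidonic acid, had 101, 139 and 47.8 TMM CPM in chow and 9.42 and 10.3 in MASH (log2 -3.28, SE 0.47, edgeR adjusted p = 0.00800). Its close relative Cyp2c50 had 115, 167 and 104 in chow and 29.0 and 17.6 in MASH (log2 -2.47, SE 0.35, edgeR adjusted p = 0.00771). Cyp2c70 had 206, 957 and 856 in chow and 59.9 and 68.8 in MASH (log2 -3.39, SE 0.68, edgeR adjusted p = 0.0206). The chow libraries differed more among themselves than the MASH libraries for all 3 genes on this scale, with chow 1 the lowest for Cyp2c70 and chow 3 the lowest for Cyp2c37 and Cyp2c50.

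Of the genes with many shared 3′ windows, Cyp2c67 had 96.2, 145 and 37.8 TMM CPM in chow and 22.0 and 13.6 in MASH (log2 -2.39, SE 0.56, edgeR adjusted p = 0.0325). Cyp2c68 had 84.1, 180 and 28.7 in chow and 14.1 and 13.6 in MASH (log2 -2.82, SE 0.70, edgeR adjusted p = 0.0379). For both, chow 2 was the highest and chow 3 the lowest library in chow. Cyp2c69 was counted 13, 73 and 7 times in the chow libraries and 0 and 1 times in MASH, a ratio of MASH to chow of 0.0313 with a 95% counting interval from 0.000783 to 0.178, and did not pass the test (edgeR adjusted p = 0.0703). It passed the filter on low counts only through chow, and the interval leaves out the spread between libraries.

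Cyp2c38 and Cyp2c39 did not pass the test. Cyp2c38 had 62.2, 29.2 and 15.2 TMM CPM in chow and 62.1 and 93.6 in MASH (log2 1.13, SE 0.52, edgeR adjusted p = 0.169), so that MASH 1 met chow 1 and MASH 2 lay above all others. Cyp2c39 was counted 10, 19 and 5 times in chow and 7 and 16 times in MASH (log2 0.56, SE 0.71, edgeR adjusted p = 0.616).

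Leaving out single libraries ended some calls. Without MASH 2, Cyp2c29 and Cyp2c54 remained called, 2 of 10 tested; without MASH 1, Cyp2c29, Cyp2c50 and Cyp2c54 were, 3 of 10; and without chow 2, Cyp2c29, Cyp2c37, Cyp2c50 and Cyp2c54 were, 4 of 8. Over all genes these fits called 216, 280 and 859 in place of 2117. Without chow 1, Cyp2c68 missed the threshold (edgeR adjusted p = 0.0505) and Cyp2c38 passed it as higher in MASH (log2 1.81, edgeR adjusted p = 0.0289). No member with a call changed direction under any of these.

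Markers of other liver cells also differed between the diets in the same hepatocyte nuclei. Of 29 markers of endothelial, stellate, macrophage, lymphocyte, cholangiocyte and neutrophil cells, 19 were higher in both MASH libraries than in all chow libraries and 1 was lower. Over all genes tested the shares were 30.1% and 24.2%, in TMM CPM. Their summed level was 161 to 346 CPM in chow and 574 to 590 CPM in MASH, and Ms4a1 and Krt19 were at 0 in chow 2. With nuclei of at least 3 such UMIs removed, the same 7 members were called, with log2 differences of -3.75 for Cyp2c29 and -3.34 for Cyp2c70.

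The family total was lower in MASH and its make-up was another one. All members together had 998, 1858 and 1080 CPM in the chow libraries and 247 and 283 CPM in the MASH libraries. Cyp2c38 made up 6.81%, 1.43% and 1.07% of the family's UMIs in chow and 27.9% and 39.7% in MASH. The groups do not overlap, and the difference of 30.7 percentage points gave p = 0.1 in the exact two-sided permutation test over libraries, the smallest that 3 against 2 allows, in 1 of 10 such tests, so no share could pass 0.05.

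Cyp2c29 went the other way, from 20.4%, 17.4% and 21.1% of family UMIs in chow to 10.1% and 6.66% in MASH (exact permutation p = 0.1). Cyp2c39 also had a higher share in both MASH libraries (0.257% ± 0.0980) than in chow (0.0288% ± 0.0155; exact permutation p = 0.1). Cyp2c54 made up 4.24% ± 2.21 in chow and 1.15% ± 0.498 in MASH, without overlap (exact permutation p = 0.2). Cyp2c70 was the most variable, with 22.5%, 46.8% and 59.9% in chow and 26.9% and 29.2% in MASH, which overlap (exact permutation p = 0.4). The shares of Cyp2c37, Cyp2c50, Cyp2c67, Cyp2c68 and Cyp2c69 also overlapped between the diets. Of the chow libraries, chow 1 had the lowest share of Cyp2c70 and the highest of Cyp2c38.

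**Figure D2:**
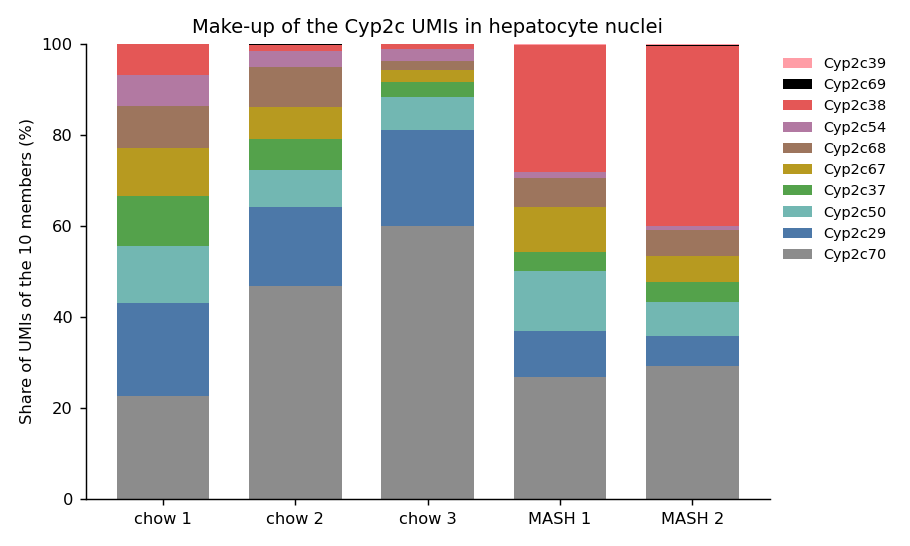
Share of each member in the UMIs of all 10 members in hepatocyte nuclei, in percent, with 1 bar per library and 1 colour per gene. Cyp2c38 takes 27.9% and 39.7% of the MASH bars and at most 6.81% of the chow bars, and Cyp2c70 takes 22.5% to 59.9% of the chow bars.

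Free RNA in the nuclei suspension sets a background for these values. It was read from nuclei with no Hnf4a UMI, at least 300 genes and at least 3 UMIs of the markers of other cell types. This choice is meant to leave out nuclei that make Cyp2c transcripts. There were 1499, 557 and 1002 such nuclei in chow and 3690 and 4331 in MASH, with median depths of 1009 to 1448.5 UMIs against 3871.5 to 5475 in hepatocyte nuclei. Since the definition used Hnf4a, the ratios are given as a description. A hepatocyte nucleus can also lack an Hnf4a UMI, and 5.96% (chow 2) to 35.5% (MASH 2) of the hepatocyte nuclei held at least 3 such marker UMIs. Nuclei counted as other types may therefore include hepatocytes or doublets, and the background may be set too high.

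Cyp2c38 and Cyp2c70 had more CPM in hepatocyte nuclei than in the nuclei of other types in 5 of 5 libraries, by 1.32 to 2.67 times and 1.04 to 2.15 times. Cyp2c29 had less in 5 of 5 libraries, at 0.475 to 0.955 times, and Cyp2c50 in 4 of 5. Cyp2c54, Cyp2c37, Cyp2c67 and Cyp2c68 lay on either side of 1. Alb, which encodes albumin, was also lower in hepatocyte nuclei in all 5 libraries (0.404 to 0.728 times), whereas Cps1, an enzyme of the urea cycle, was higher in hepatocyte nuclei in all 5 libraries (1.24 to 1.78 times). Per nucleus, hepatocyte nuclei held more UMIs of each of these members, from 1.10 times for Cyp2c50 in its lowest library to 9.59 times for Cyp2c38 in its highest. The UMI minimum of hepatocyte nuclei favours such an excess, and Alb had it too (1.22 to 2.33 times).

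After thinning every nucleus to 1000 UMIs, Cyp2c29 was found in 22.1% ± 6.10 of chow hepatocyte nuclei and in 37.2% ± 13.9 of chow nuclei of other types (SD, n = 3). Hepatocyte nuclei were deeper and lost more UMIs to thinning, so these shares alone do not set the hepatocyte signal against background. Per nucleus and unthinned, where the UMI minimum favours hepatocyte nuclei, these held 1.25 to 3.06 times the Cyp2c29 UMIs of other types over the 5 libraries. The unthinned chow shares of Cyp2c29 were 62.6% and 46.7%. Cyp2c38 was found in 2.84% ± 2.50 of thinned chow hepatocyte nuclei against 1.09% ± 0.802 of the others, and in MASH in 7.49% ± 1.16 against 2.70% ± 0.579 (SD, n = 2). The unthinned shares of Cyp2c38 were 12.1% against 2.16% in chow and 25.1% against 5.04% in MASH. Thinning left out 1107 chow and 1654 MASH nuclei of other types and no hepatocyte nuclei.

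The background moved with diet as the hepatocyte values did: the MASH mean was 0.0556 of the chow mean for Cyp2c29 in nuclei of other types, 2.56 times it for Cyp2c38 and 0.207 of it for Cyp2c70. When each library's mean UMIs per nucleus of other types were taken off its hepatocyte sums, a step chosen after seeing the data, Cyp2c29 alone remained called (log2 -3.11, edgeR adjusted p = 0.0374), with 1.30% of 12968 genes called. Cyp2c70 then stood at -3.50 (edgeR adjusted p = 0.0964) and Cyp2c54 at -3.33 (edgeR adjusted p = 0.129), and all 10 members kept their direction. The subtraction may take off too much where nuclei of other types include hepatocytes.

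**Figure D3:**
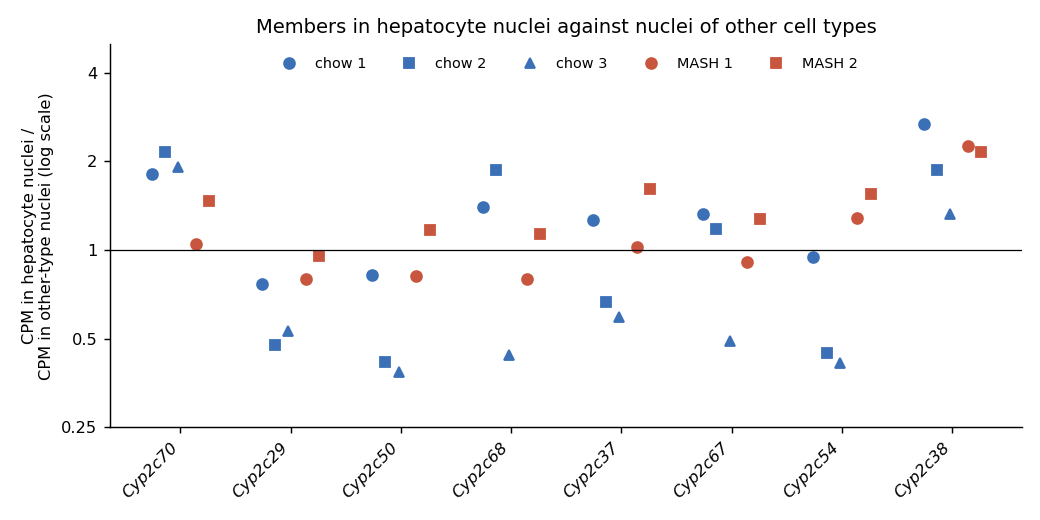
CPM in hepatocyte nuclei divided by CPM in nuclei of other cell types of the same library, on a log axis, for the 8 members with UMIs in both kinds of nuclei in every library (1 point per library; line, equal levels). All points of Cyp2c70 and Cyp2c38 lie above the line and all points of Cyp2c29 below it.

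Along the lobule the members differed in direction. Each library's hepatocyte nuclei were ranked and cut into 3 equal bins by a score of 12 pericentral genes (such as Glul and Oat) against 12 periportal genes (such as Hal and Sds), none of them a Cyp2c gene, and the bins are called periportal, middle and pericentral. The score is a continuous range and not a cell type, and 0.214% to 3.60% of nuclei had the score at which the bins were cut. Because bins were cut within each library, a bin need not hold the same part of the lobule in every library or diet. In all 5 libraries each of the 12 pericentral genes was higher and each of the 12 periportal genes lower in the pericentral bin, which the score itself sets.

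Of the 8 members with enough UMIs to be tested, 7 were higher in the pericentral bin and 1 was lower (edgeR's quasi-likelihood test with library as a block, adjusted over 14071 genes, of which 13.6% passed, 7.51% as higher and 6.06% as lower). The median log2 difference was 1.43 over these 8 members and -0.00200 over all genes. Cyp2c39 and Cyp2c69 had too few UMIs for this test.

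Of the 8 tested members, Cyp2c38 had the largest zone difference. It had 10.4, 9.53 and 1.92 CPM in the periportal bin of the chow libraries and 140, 52.8 and 29.9 in the pericentral bin, and 12.7 and 25.8 against 161 and 241 in the MASH libraries (log2 difference 3.29, SE 0.15, edgeR adjusted p = 4.9e-07). Its level rose from the periportal to the middle to the pericentral bin in every library. From the periportal to the pericentral bin Cyp2c38 rose by 5.54 to 15.6 times. Glul, glutamine synthetase, which marks the innermost ring around the central vein, rose by 12.7 to 34.7 times. Glul is part of the score, which sets its rise, so its range is no measure for that of Cyp2c38.

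Cyp2c37 followed with a log2 difference of 2.23 (SE 0.27, edgeR adjusted p = 2.4e-04), from 32.8, 81.2 and 24.3 CPM to 222, 200 and 59.1 in chow and from 4.05 and 3.03 to 23.1 and 26.4 in MASH. Cyp2c54 (1.79), Cyp2c29 (1.44), Cyp2c50 (1.42), Cyp2c67 (1.18) and Cyp2c68 (0.60) were also higher in the pericentral bin. In each of these except Cyp2c68 the level rose over the 3 bins in every library, and for Cyp2c68 in 4 of 5.

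Cyp2c70 alone was lower in the pericentral bin (log2 difference -0.36, SE 0.071, edgeR adjusted p = 0.00519). It had 253, 906 and 748 CPM in the periportal bin of the chow libraries and 189, 789 and 507 in the pericentral bin, and 69.2 and 93.5 against 61.9 and 76.2 in MASH, so the pericentral bin held 0.677 to 0.894 of the periportal bin in all 5 libraries. The calls of Cyp2c68 and Cyp2c70 were lost without MASH 1 (edgeR adjusted p = 0.124 and 0.0638) or MASH 2 (0.0970 and 0.113). Thinning nuclei to 2000 UMIs ended the calls of Cyp2c54 (edgeR adjusted p = 0.101) and Cyp2c68 (edgeR adjusted p = 0.258).

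**Figure D4:**
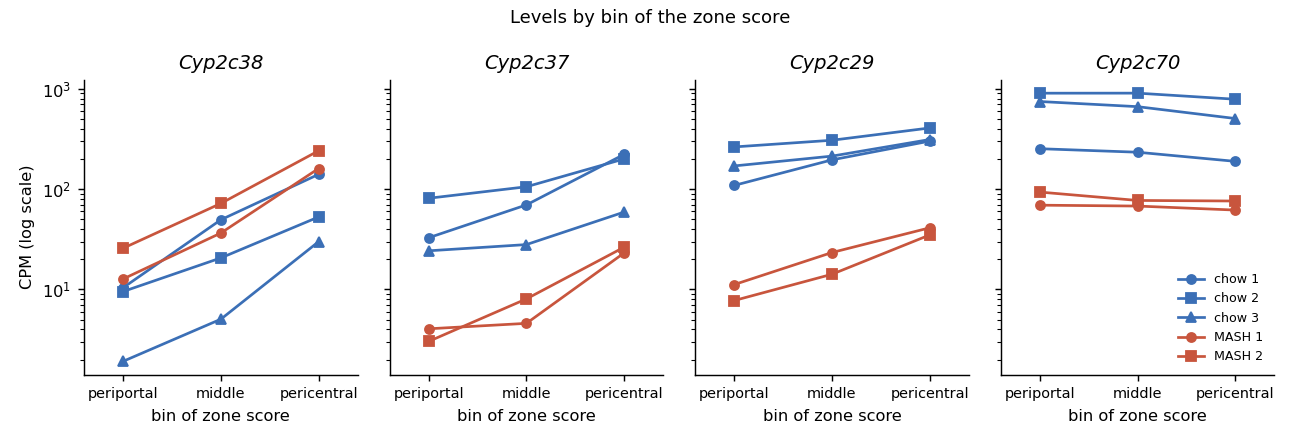
CPM of Cyp2c38, Cyp2c37, Cyp2c29 and Cyp2c70 on a log axis in the periportal, middle and pericentral bins of the zone score, with 1 line per library (blue, chow; red, MASH). The lines of Cyp2c38 climb in all 5 libraries, by 5.54 to 15.6 times, and those of Cyp2c70 end at 0.677 to 0.894 of where they start.

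The make-up of the family differed along the lobule. In the periportal bin, Cyp2c70 made up 54.8% ± 14.5 of family UMIs in chow and 53.0% ± 6.98 in MASH. In the pericentral bin it made up 32.3% ± 17.1 in chow and 15.6% ± 0.858 in MASH, where Cyp2c38 made up 45.1% ± 8.78. In the pericentral bin of chow, Cyp2c38 made up 4.99% ± 4.10 of family UMIs.

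Within chow alone, 7 members were higher and 1 lower in the pericentral bin, where 15.2% of all genes passed (7.98% higher, 7.23% lower). Within MASH, 6 members were higher and none lower, where 4.51% of genes passed (2.52% higher, 1.98% lower). Cyp2c68 (0.38, SE 0.23, edgeR adjusted p = 0.492) and Cyp2c70 (-0.25, SE 0.12, edgeR adjusted p = 0.323) did not pass in MASH.

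Whether the zone difference itself differed between the diets was tested as an interaction. The score genes themselves differed with diet: in the pericentral bin the MASH mean was 3.20 times the chow mean for Glul and 0.511 times for Oat. For Hal and Sds it was 0.358 and 0.327 times. Bins of the same name may thus differ between the diets, and what this adds to the interaction was not tested. By edgeR, 0 of the 8 members passed, and 0.675% of 14071 genes did, 0.277% with a higher and 0.398% with a lower difference in MASH. At an unadjusted p under 0.05, 3 members had a higher zone difference in MASH, where 5.93% of all genes did. The estimates nearest to the threshold were those of Cyp2c50 (zone difference 0.75 in chow and 2.09 in MASH, edgeR adjusted p = 0.0906) and Cyp2c29 (0.89 and 1.99, edgeR adjusted p = 0.0968). Cyp2c54 had 0.73 in chow and 2.85 in MASH (edgeR adjusted p = 0.187). For Cyp2c38 the gradients were 3.20 and 3.38, a difference of 0.18 with SE 0.32 (edgeR adjusted p = 0.871).

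Chow 1 had steeper gradients than the other chow libraries for Cyp2c29, Cyp2c37, Cyp2c50, Cyp2c54, Cyp2c67 and Cyp2c68. Without chow 1, 5 of the 8 members passed the interaction test, with a steeper gradient in MASH, and 3.65% of genes did. In chow 1, Cyp2c29 was 2.76 times higher in the pericentral than in the periportal bin, against 1.55 and 1.83 times in chow 2 and chow 3 and 3.68 and 4.51 times in MASH. Per nucleus, hepatocyte nuclei held 2.75, 1.25 and 1.73 times the Cyp2c29 UMIs of other-type nuclei in chow 1, 2 and 3. In MASH 1 and 2 they held 2.17 and 3.06 times. Free RNA was not taken off the zone sums, so its part in these gradients was not tested. With all libraries DESeq2 called 2 members, Cyp2c29 (adjusted p = 0.0451) and Cyp2c50 (adjusted p = 0.0191), both with a higher zone difference in MASH, where it called 0.235% of all genes in that direction.

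**Figure D5:**
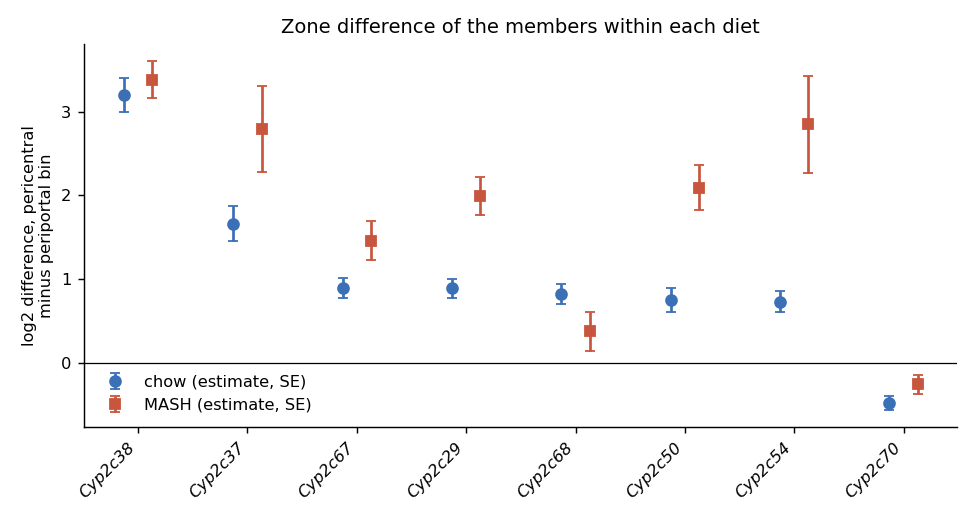
Log2 difference between the pericentral and the periportal bin of the zone score for the 8 tested members, estimated within chow (blue circles) and within MASH (red squares), with bars of 1 SE. Cyp2c38 lies at 3.20 and 3.38, the points of Cyp2c54 are furthest apart (0.73 and 2.85), and Cyp2c70 lies below 0 in both.

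Of the 5 other Cyp2c genes, Cyp2c65 and Cyp2c66 had no UMI in hepatocyte nuclei. Cyp2c55 did not pass the test (log2 -1.71, edgeR adjusted p = 0.0749). Cyp2c23 fell in MASH from 209, 104 and 104 to 48.5 and 24.8 TMM CPM (log2 -1.92, edgeR adjusted p = 0.0318). Cyp2c40, which hydroxylates arachidonic acid and shares 3′ windows with Cyp2c67 to Cyp2c69, had 71, 465 and 37 UMIs in the chow libraries and 1 and 1 in MASH. The ratio of the pooled 2 to 573 UMIs was 0.0101, with a 95% interval from 0.00123 to 0.0368 that leaves out the spread between libraries (edgeR adjusted p = 0.0304 in the diet test). Cyp2c40 passed the filter on low counts only through chow, where it was high, so its test is given as a description. Its level in chow was 2.72, 16.3 and 1.24 TMM CPM, highest in chow 2 as for Cyp2c67, Cyp2c68 and Cyp2c69.

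Of the 4 electron donors, 0 passed the diet test by edgeR, where 13.7% of all genes did. At an unadjusted p under 0.05, 1 was lower in MASH, and DESeq2 called 1 lower, where 14.4% and 10.8% of all genes were lower. Por, the P450 reductase, had a log2 difference of -0.75 (SE 0.34, edgeR adjusted p = 0.160). Por (0.67), Cyb5a (0.48) and Cyb5b (0.35) were higher in the pericentral bin, as were 7.51% of all genes. The list of 6 other P450 genes was made up of pericentral ones. Of these, 0 passed the diet test by edgeR, 2 were lower at an unadjusted p under 0.05 and 2 were lower by DESeq2. All 6 were higher in the pericentral bin, where 7.51% of all genes were, but they had been listed as pericentral. The largest differences were those of Cyp2a5 (log2 difference 2.35), Cyp1a2 (1.44), Cyp2e1 (1.44) and Cyp27a1 (0.69).

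Of the 8 partners in fatty acid oxygenation, 3 fell and 1 rose in MASH, where 4.48% of all genes fell and 9.26% rose. The fatty acid hydroxylases Cyp4a14 (log2 -3.98, edgeR adjusted p = 0.0445) and Cyp4a12a (-2.78, edgeR adjusted p = 0.0248) and the epoxygenase Cyp2j5 (-1.27, edgeR adjusted p = 0.0303) fell, and Ephx1, microsomal epoxide hydrolase, rose (1.23, edgeR adjusted p = 0.0407). Of these genes, 4 were higher in the pericentral bin and 2 lower, against 7.51% and 6.06% of all genes. The largest differences were those of Cyp4a14 (1.80), Cyp4a10 (1.31), Cyp4a12a (0.75) and Cyp2j5 (-0.31).

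Of the 7 bile acid enzymes that stand beside Cyp2c70, 2 fell in MASH and none rose, where 4.48% of all genes fell and 9.26% rose. Cyp7b1, of the alternative pathway of bile acid synthesis, went from 274, 402 and 471 to 15.4 and 13.9 TMM CPM (log2 -4.71, SE 0.38, edgeR adjusted p = 0.00185). Slc27a5, a bile acid CoA ligase, fell by 1.23 on the log2 scale (edgeR adjusted p = 0.0345). By zone, Cyp7a1 (1.47) and Cyp27a1 (0.69) were higher and Baat (-0.17) lower in the pericentral bin. Of all genes, 7.51% were higher and 6.06% lower there.

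Of the 16 transcription factors linked to Cyp2c genes, 1 fell with diet, where 4.48% of all genes fell. It was Onecut1 (log2 -3.86, edgeR adjusted p = 0.0305), whose chow level ranged from 128 TMM CPM in chow 3 to 1193 in chow 2. Nr1i3, which encodes CAR, had a log2 difference of 0.22 (edgeR adjusted p = 0.768) and Nr1i2, which encodes PXR, one of -0.02 (edgeR adjusted p = 0.973). In the pericentral bin Ahr (1.43) and Nr1i3 (1.39) were higher and Onecut1 (-0.52) lower, against 7.51% and 6.06% of all genes.

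Over the 15 sums of 5 libraries by 3 bins, the genes outside the family whose log2 CPM followed the summed members most closely were Zfp445 (Pearson r = 0.967), E2f4 (0.949), Eif2b4 (0.947), Kdm5c (0.947) and Adrm1 (0.944), out of 9018 genes compared. The sums of 1 library share its depth and free RNA, so these values describe likeness in these libraries. Among the 8 members compared (without Cyp2c39 and Cyp2c69), Cyp2c54 and Cyp2c50 were most alike (r = 0.973 over the same sums), as were Cyp2c29 and Cyp2c54 (0.973), and Cyp2c38 and Cyp2c70 were the least alike (-0.567).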

How the data were processed

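Single-nucleus RNA-seq was analysed in 3 chow and 2 MASH libraries of mouse liver. The authors sorted nuclei, made 10x 3′ libraries and deposited UMI counts per gene and barcode from Cell Ranger 8.0.1 (GRCm38), with intronic reads left out. The deposited counts were used as they are. The study's own filters (features per cell, DoubletFinder, manual curation) were not applied to these matrices here. Doublets were not removed in the reported values: Scrublet (scanpy 1.11.5) called 3 barcodes in chow 1 and 0 in the other libraries on its own threshold, which for this many barcodes has not worked, so its highest scores were removed as an alternative.

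UMIs were summed per library over nuclei with at least 2000 UMIs and at least 1 Hnf4a UMI. Sums were compared with edgeR 4.0.16 (R 4.3.3; TMM scaling, filterByExpr, quasi-likelihood test, Benjamini-Hochberg over all genes tested, 0.05). Zone sums were the pericentral and periportal bins, the outer 2 of 3 equal bins of each library's nuclei by a marker score, with library as a block. Zone tests kept genes with at least 3 UMIs in the sums of each diet, a filter added after seeing the data. Shares of the family total were compared by an exact permutation test written in Python 3.11. Intervals cover counting error only. Positions came from GENCODE M21. DESeq2 1.42.0, other filters, thinning and leaving out each library were alternatives. The scripts were tested on simulated data.

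The members and gene lists were chosen with earlier results of these data known. From the lists, the text names each gene past the threshold or, where more than 4 pass, the 4 with the largest log2 difference, and other genes with their values were chosen after these were seen. Likeness used genes with a mean of at least 10 CPM.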

Additional observations from a re-analysis of the deposited data

Results flagged for a closer look

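Cyp1a2, a P450 of caffeine metabolism, had a larger zone difference in MASH than in chow. Its log2 difference between the pericentral and the periportal bin was 0.87 in chow and 2.00 in MASH, so the difference between the diets was 1.13 (SE 0.20, edgeR adjusted p = 0.0358). Over the alternatives the adjusted p reached 0.469, without MASH 2. It was also above the threshold without MASH 1 (0.358), without chow 3 (0.0985), with nuclei thinned to 2000 UMIs (0.351), with nuclei holding markers of other cell types removed (0.0770) and with the highest Scrublet scores removed (0.0539). The direction was the same in all of these.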

How the results depend on the processing

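The diet comparison called 2117 genes. It called 3599 with DESeq2, of which 53.8% were higher in MASH against 67.4% with edgeR, 3322 with no filter on low counts, 4063 with Storey's q-values, 168 with the background of other-type nuclei subtracted, and 216 to 3298 with 1 library left out. The zone comparison called 1909 genes, 1134 with DESeq2, 1034 with nuclei thinned to 2000 UMIs and 734 to 2363 with 1 library left out. The interaction called 95 genes, 59 with nuclei holding markers of other types removed, 41 with thinned nuclei, 201 with P450 genes in the zone score and 0 to 507 with 1 library left out. The 0 came without MASH 1 and without MASH 2, where edgeR gave 1092 and 1077 genes at an unadjusted p under 0.05. The interaction of Cyp2c38 (0.18) turned to -0.023 with 2 bins by score in place of 3 and to -0.20 with P450 genes in the score, and it ranged from -0.35 to 0.48 with 1 library left out. With 1 library left out, the difference in family share ranged from -1.90 to 3.68 points for Cyp2c50 (0.89 with all), -0.99 to 3.12 for Cyp2c67 (1.07 with all) and -2.97 to 0.63 for Cyp2c68 (-0.64 with all, 0.061 with thinned nuclei). The cause of these changes was not tested.

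Diet differences of the members kept their direction in all alternatives run, with 149 on the same side of the threshold, 19 no longer past it and 6 newly past it. With the replicate number as a block (replicate block) 1937 genes and 8 members were called. Nothing shows that the numbers pair the libraries: deviations from the group means correlated at -0.103 between chow 1 and MASH 1 and at -0.198 between chow 2 and MASH 2.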
